A study of Homo sapiens with 34 samples.

Results

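HOX genes encode homeodomain transcription factors that lie in 4 clusters, HOXA on chromosome 7, HOXB on chromosome 17, HOXC on chromosome 12 and HOXD on chromosome 2. All 31 measured genes whose symbol is HOXA, HOXB, HOXC or HOXD followed by digits only were taken as members, of 31975 genes in the RNA sequencing table. They comprised 11 HOXA genes, 8 HOXB genes (HOXB2 to HOXB9), 8 HOXC genes (HOXC4, HOXC5, HOXC6, HOXC8, HOXC9, HOXC10, HOXC11 and HOXC13) and 4 HOXD genes (HOXD8, HOXD11, HOXD12 and HOXD13). Other HOX genes were not analysed here. The samples were 34 established human lymphoma cell lines, with no treatment given in the labels and 1 library of total RNA each. By the labelled pathology, 11 lines were mantle cell lymphoma (MCL), 3 were Burkitt lymphoma (BL) and 20 were diffuse large B-cell lymphoma (DLBCL), of which 14 had the germinal-centre-like subtype (GCB DLBCL) and 6 the activated-B-like subtype (ABC DLBCL). Each line counts as 1 replicate of its pathology, seen in a single library.

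HOX proteins bind DNA together with cofactors of the TALE homeodomain class, the PBX and MEIS proteins, and specify position along the body axis in the embryo. Within a cluster the genes stand in the order in which they are used from head to tail, and lower numbers mark the anterior (3′) end. In blood, stem and progenitor cells express many HOXA and HOXB genes and lower them as they mature. Trithorax proteins such as KMT2A keep the clusters open and Polycomb complexes such as EZH2 with EED and SUZ12 keep them closed.

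Expression was read as RPM, reads per 1000000 (M) recovered reads of the library. Whole reads were recovered from the deposited variance-stabilised values. A gene was called active in a line at 2 or more RPM and at least 3 reads. RPM is not corrected for gene length, so levels were compared between lines for 1 gene or 1 summed cluster, and not between genes. The cut-off is the same for every gene, so the number of lines in which a gene is active is not corrected for length either. Recovered depth was 60.1 to 109 M reads in MCL, 2.55 to 108 in GCB DLBCL, 22.7 to 165 in ABC DLBCL and 22.6 to 92.4 in BL. Of the 34 libraries, 9 stood apart: they held no read of ZNF593 or EMC6, genes with reads in the other 25. These 9, called the second library class, were 8 of the 14 GCB DLBCL lines (DB, DOHH-2, Karpas422, NU-DHL-1, OCI-Ly1, OCI-Ly7, SU-DHL-6 and WSU-DLCL2) and the ABC DLBCL line NU-DUL-1. The 8 GCB DLBCL libraries among them held 4.84 M reads or fewer, so a gene with 0 reads there could stand at up to 0.620 to 1.18 RPM (3 reads, counting error only). HOX contrasts with GCB DLBCL that passed, and the number of active HOX genes per line, are therefore given with and without the second class. Other GCB DLBCL results are over all 14 lines, unless the first class (the other 25 libraries) is named, and may differ without the second class. Of the B-cell markers, 5 of the 6 listed (MS4A1, CD79A, CD79B, PAX5 and CD22) were active in all 34, and the list had a summed level of 1164 to 7511 RPM. Among 6 myeloid markers, CD14, CSF1R, MPO and CD68 were active in no line and the summed level was 0 to 12.1 RPM. The summed T-cell markers ranged from 0.109 to 704.5 RPM, the highest in the line Pfeiffer, where CD8A stood at 698.6 RPM, and CD2 was active in no line. Stromal and epithelial markers summed to 0 to 467.1 RPM, the highest in Karpas422. The part of these other-lineage markers in HOX levels was not tested.

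Promoters of 15 of the 31 members could be matched by symbol to RefSeq windows on GRCh38.p14, and 4 windows are printed because their genes carry the contrasts described below: HOXA2 was the member that passed the test between pathologies, HOXA7 and HOXA9 were active in 8 and 2 lines, and HOXC4 was active in nearly every line. Each run holds the 250 bases before the gene's start, 5′ to 3′ on the gene's strand. Capitals mark matches on either strand to any of 4 motifs. The NF-Y motif has the letters CCAAT on its own strand. The E-box searched for has the letters CACGTG and reads the same on both strands. The box of the basal promoter, the TATA box, was searched for as TATAAA with no other letters. The motif bound by PBX and HOX proteins was searched for as TGATTGAT and contains none of the others.
HOXA2 (chr7:27102684-27102933, minus strand): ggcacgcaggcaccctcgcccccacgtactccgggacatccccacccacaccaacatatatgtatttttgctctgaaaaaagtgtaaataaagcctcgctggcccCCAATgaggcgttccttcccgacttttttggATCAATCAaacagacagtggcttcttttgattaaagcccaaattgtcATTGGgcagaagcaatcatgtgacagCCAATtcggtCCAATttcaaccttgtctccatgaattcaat
HOXA7 (chr7:27156676-27156925, minus strand): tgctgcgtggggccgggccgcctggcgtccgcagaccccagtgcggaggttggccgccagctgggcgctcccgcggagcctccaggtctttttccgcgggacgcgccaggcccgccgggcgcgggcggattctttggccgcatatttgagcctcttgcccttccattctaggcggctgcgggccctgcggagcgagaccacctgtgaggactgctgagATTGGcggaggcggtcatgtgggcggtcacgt
HOXA9 (chr7:27165538-27165787, minus strand): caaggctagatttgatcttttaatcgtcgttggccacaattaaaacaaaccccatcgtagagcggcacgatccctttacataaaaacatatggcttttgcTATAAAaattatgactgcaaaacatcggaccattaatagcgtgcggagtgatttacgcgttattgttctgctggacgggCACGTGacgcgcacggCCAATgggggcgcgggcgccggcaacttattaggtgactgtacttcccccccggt
HOXC4 (chr12:54016638-54016887, plus strand): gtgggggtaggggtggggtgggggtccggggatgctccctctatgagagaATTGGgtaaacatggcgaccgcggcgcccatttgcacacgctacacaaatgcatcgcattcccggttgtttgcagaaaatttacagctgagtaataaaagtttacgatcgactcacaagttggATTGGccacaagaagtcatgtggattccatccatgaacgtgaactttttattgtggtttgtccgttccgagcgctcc

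The HOXA2 window held 4 matches to the NF-Y motif and 1 to the PBX and HOX motif, HOXA7 held 1 NF-Y match, HOXA9 held 1 match each to the NF-Y motif, the E-box and the TATA box, and HOXC4 held 2 NF-Y matches. HOXC5 begins at the same base as HOXC4 and shares its window. Over the 15 member windows, the NF-Y motif was found in 12, against 33% of all 27305 promoter windows of the same length. The E-box was found in 4 of the 15 (6.49% of all windows), the TATA box in 4 (11.1%) and the PBX and HOX motif in 2, HOXA2 and HOXD11 (0.472%). The member windows held 8 (HOXA2) to 40 (HOXA13) CG dinucleotides with a median of 20, against a median of 11 over all windows. These matches describe letters only, and neighbouring HOX promoters share ancestry, so the 15 windows are not independent.

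Of the 31 HOX genes, 22 were active in at least 1 line (71.0%, against 59.7% of all genes) and 9 in none. HOXC4 was active in 32 lines, HOXB4 in 29, HOXB7 in 26 and HOXB3 in 21, and no other HOXB, HOXC or HOXD gene was active in 17 or more. At the other end, 8 members were active in only 1 to 3 lines: HOXA2, HOXA9, HOXA11, HOXB6, HOXC9, HOXC10, HOXC11 and HOXD8. The 9 members active in no line were HOXB2, HOXB5, HOXB8, HOXC5, HOXC8, HOXC13, HOXD11, HOXD12 and HOXD13. All 9 held some reads, and HOXB2, HOXC13 and HOXD13 were active in at least 1 line at a cut-off of 1 RPM. Of the 1054 values of a member in a line, 228 were active (21.6%) and 459 were at 0 reads. The same shares over all genes are not given here. The cut-off fell among 66 values of 1 to under 2 RPM and 78 values of 2 to under 4 RPM, so for these the call depended on where it was set. The map of levels by gene and line shows HOXC4, HOXB3, HOXB4 and HOXB7 as the HOXB and HOXC rows with the most active values.

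**Figure D1:**
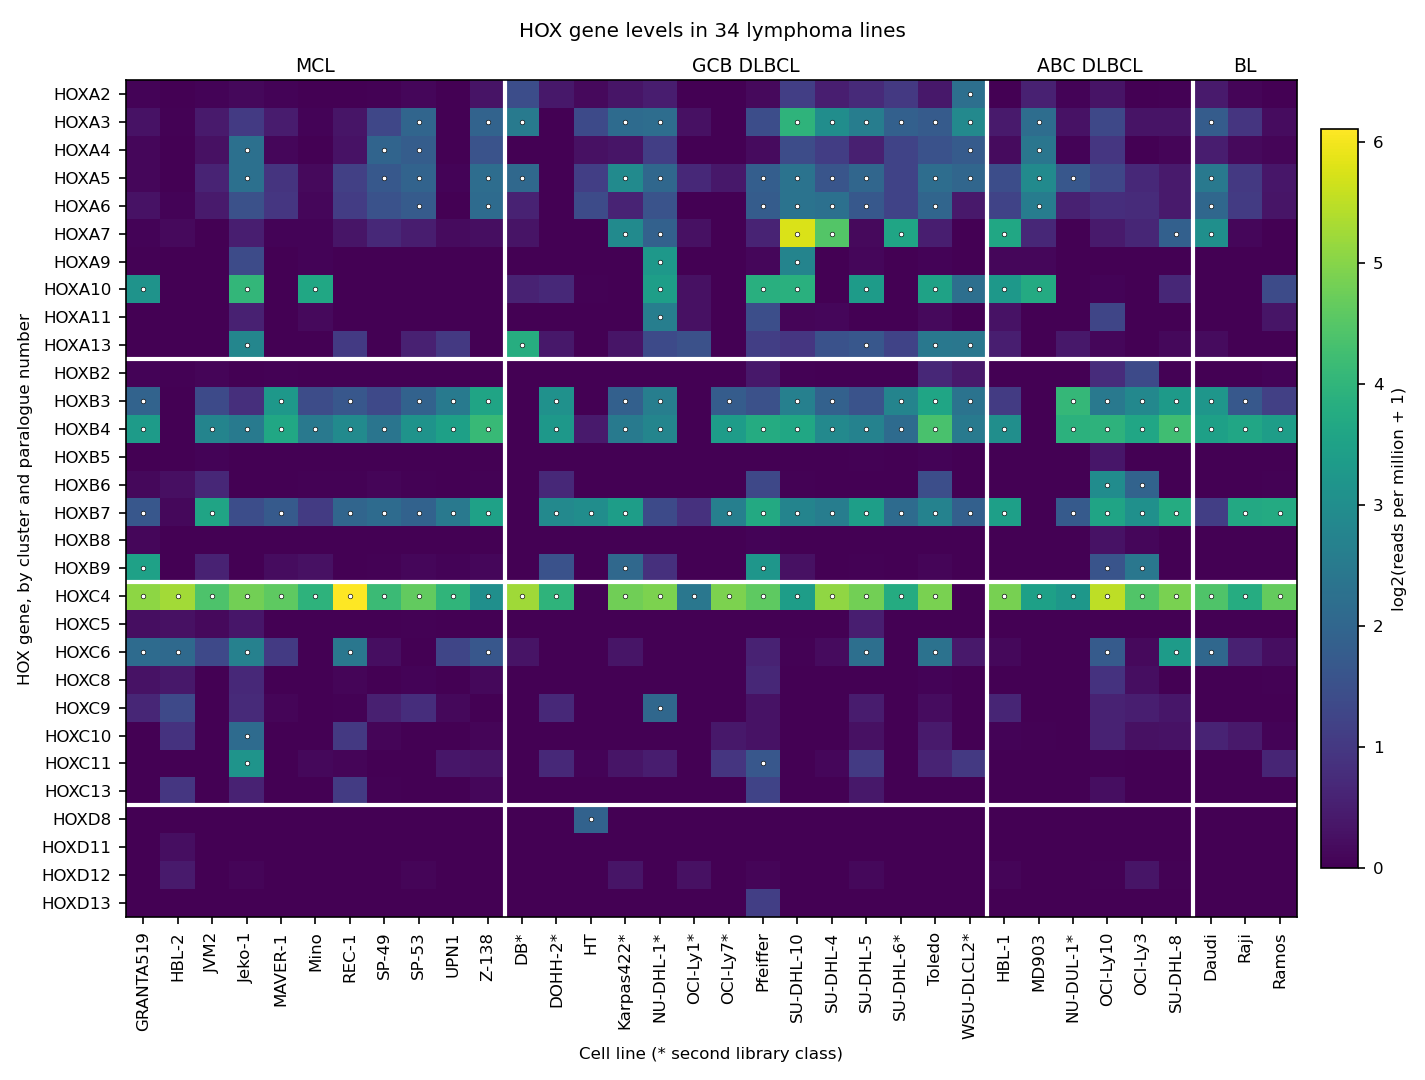
Level of 30 of the 31 HOX genes (rows, by cluster and paralogue number) in each of the 34 cell lines (columns, by pathology), coloured by log2(RPM + 1); white dots mark active values and asterisks the second library class. HOXC4 and HOXB4 form nearly unbroken rows, whereas HOXA10 is active in 11 lines, HOXA7 in 8 and HOXB9 in 5.

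In the HOXC cluster the gene active in most lines was HOXC4, a gene that B cells of the germinal centre express. HOXC4 (ENSG00000198353, chr12:54016888-54056030) stood at 7.28 (Z-138), 23.1 and 68.1 RPM (REC-1) as lowest, median and highest in MCL, at 0 (WSU-DLCL2), 24.7 and 37.1 (DB) in GCB DLBCL, and at 8.37 (NU-DUL-1), 24.3 and 44.0 (OCI-Ly10) in ABC DLBCL. In BL, HOXC4 stood at 20.5 RPM in Daudi, 12.8 in Raji and 24.6 in Ramos. The levels of the 4 pathologies overlapped, and HOXC4 did not pass the test between MCL and GCB DLBCL (log2 difference 1.03 ± 0.55 SE, limma adjusted p = 0.16).

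HOXC4 was not active in 2 lines, both GCB DLBCL. HT held 2 HOXC4 reads in a library of 84.0 M (0.0238 RPM), although the lowest active line, OCI-Ly1, stood at 4.34 RPM. WSU-DLCL2 held 0 reads in 2.97 M, which allows up to 1.01 RPM. No other HOXC gene was active in either line.

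HOXC6 was the other recurrent gene of the cluster, active in 10 lines: 5 MCL lines (GRANTA519, HBL-2, Jeko-1, REC-1 and Z-138), SU-DHL-5 and Toledo of GCB DLBCL, OCI-Ly10 and SU-DHL-8 of ABC DLBCL, and Daudi. In MCL it stood at 0.0109 RPM in Mino at the lowest, 1.54 at the median and 5.46 in Jeko-1 at the highest. In GCB DLBCL the lowest was 0 in 5 lines, the median 0.0738 and the highest 3.90 in Toledo. In ABC DLBCL HOXC6 ran from 0 in MD903 and NU-DUL-1 through a median of 0.104 to 9.19 RPM in SU-DHL-8, the highest of all lines, and in BL it stood at 3.10 in Daudi, 0.476 in Raji and 0.169 in Ramos. HOXC6 levels overlapped between every pair of pathologies. HOXC4, HOXC5 and HOXC6 have the same annotated start in RefSeq, and whether reads were counted by strand or shared between overlapping genes is not given in the sources used here, so their separate levels are uncertain. HOXC5, between them, reached no more than 0.425 RPM (SU-DHL-5).

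The posterior HOXC genes were nearly silent. Jeko-1, an MCL line, was the exception, with HOXC10 at 3.36 RPM and HOXC11 at 7.92 RPM. HOXC11 was also active in Pfeiffer at 2.17 RPM, and it stood at 0 reads in 16 lines. HOXC9 was active in NU-DHL-1 alone, at 3.14 RPM from 8 reads. HOXC8 reached at most 0.861 RPM (OCI-Ly10) and HOXC13 at most 1.36 RPM (Pfeiffer).

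In the HOXB cluster HOXB4, HOXB7 and HOXB3 were active in most lines and the genes between and beside them in 5 or fewer. HOXB4, known for expanding blood stem cells when overexpressed, stood at 0 (HBL-2), 6.58 and 16.3 RPM (Z-138) as lowest, median and highest in MCL. In GCB DLBCL its levels were 0 (DB and OCI-Ly1), 5.70 and 19.4 RPM (Toledo), and in ABC DLBCL 0 (MD903), 12.7 and 18.0 RPM (SU-DHL-8). In BL, HOXB4 stood at 10.2 RPM in Daudi, 11.3 in Raji and 9.52 in Ramos, within the range of every other pathology. HOXB4 did not pass the test between MCL and GCB DLBCL (log2 difference 0.53 ± 0.58 SE, limma adjusted p = 0.52). Without the second library class, HOXB4 in GCB DLBCL had a median of 8.92 RPM. Its mean log2 value there was 8.25, against 8.06 in MCL, so the direction was opposite to that over all lines.

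HOXB3, whose annotated span contains HOXB4, was active only in lines where HOXB4 was active too: 21 lines had both, 8 had HOXB4 alone and 5 had neither. In those 8 lines HOXB3 was read below the cut-off, at 0.766 (Jeko-1) to 1.96 RPM (SU-DHL-5). At a cut-off of 1 RPM, HOXB3 was active in 28 lines and HOXB4 in 29, so the split depended on the cut-off. HOXB3 stood at 0 (HBL-2), 2.18 and 10.9 RPM (Z-138) in MCL, at 0 (DB and OCI-Ly1), 2.68 and 11.1 (Toledo) in GCB DLBCL, and at 0 (MD903), 5.34 and 15.7 (NU-DUL-1) in ABC DLBCL. In BL it stood at 8.24 RPM in Daudi, 2.22 in Raji and 1.24 in Ramos. Because the spans overlap, reads of the 2 genes may not be separable, and the shared pattern cannot be told apart from shared counting.

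HOXB7 does not overlap another member, and it was active in 26 lines, 19 of them together with HOXB3. Its levels were 0.0971 (HBL-2), 2.76 and 10.9 RPM (JVM2) in MCL, 0 (DB), 5.37 and 12.05 (Pfeiffer) in GCB DLBCL, and 0 (MD903), 8.63 and 12.5 (SU-DHL-8) in ABC DLBCL. In BL, HOXB7 stood at 1.20 RPM in Daudi, 11.9 in Raji and 12.2 in Ramos. HOXB3 was active without HOXB7 in Daudi and NU-DHL-1, and HOXB7 without HOXB3 in 7 lines, among them HT at 7.001 RPM against 1 HOXB3 read.

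HOXB9 and HOXB6 marked a few lines. HOXB9 was active in GRANTA519 (10.3 RPM), Pfeiffer (8.28), OCI-Ly3 (4.38), Karpas422 (3.16) and OCI-Ly10 (2.001), and it was at 0 reads in 15 lines. HOXB6 was active in OCI-Ly10 (6.82 RPM) and OCI-Ly3 (2.83), both ABC DLBCL, which were also the lines with the most active HOXB genes, 5 each. HOXB2 reached 1.58 RPM at most (OCI-Ly3), HOXB5 0.291 and HOXB8 0.221, both in OCI-Ly10.

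The HOXB cluster was without an active gene in 4 lines. MD903 held 0 reads of all 8 measured HOXB genes in 81.2 M reads, which allows up to 0.0369 RPM for each gene. HBL-2 held 32 HOXB reads in 103 M (0.311 RPM summed). DB held 0 and OCI-Ly1 held 4, all HOXB7, in libraries of 4.07 and 4.84 M reads, where the limit is 0.736 and 0.620 RPM. All 4 of these lines had HOXC4 active, and MD903 had 6 active HOXA genes.

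The HOXA cluster was the most varied, with all 11 measured genes active in at least 1 line. For HOXA2 and HOXA11 this rested on 1 second-class library each, WSU-DLCL2 (11 reads) and NU-DHL-1 (13 reads). HOXA3 and HOXA4 were active together in 3 lines, HOXA3 without HOXA4 in 10 and HOXA4 without HOXA3 in 2. HOXA5, a gene of lung and thoracic patterning, was active in 16 lines and ran from 0.00971 RPM (HBL-2) through a median of 0.885 to 3.79 (Jeko-1) in MCL, and from 0 (DOHH-2) through 2.79 to 6.59 (Karpas422) in GCB DLBCL. In ABC DLBCL it ran from 0.362 (SU-DHL-8) through 1.59 to 6.65 RPM (MD903), the highest of all lines. In BL, HOXA5 stood at 4.52 RPM in Daudi, 1.01 in Raji and 0.288 in Ramos. HOXA6 was active in 9 lines and HOXA4 in 5, and HOXA5 was active in every one of both sets. The annotated HOXA3 span holds HOXA4, HOXA5 and HOXA6, with the same limit on separate counting as at HOXB3 and HOXB4.

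HOXA7 and HOXA10 were active in a minority of lines (both genes were singled out after their values were seen). HOXA10, which with HOXA9 and MEIS1 is known from myeloid leukaemia, was active in 11 lines at 3.70 RPM (WSU-DLCL2, 11 reads) to 15.4 RPM (Jeko-1). Its highest inactive value was 1.63 RPM in Ramos, and 15 lines held 0 reads. The active lines were GRANTA519 (7.85), Jeko-1 and Mino (11.5) of MCL, NU-DHL-1 (9.81), Pfeiffer (13.4), SU-DHL-10 (13.7), SU-DHL-5 (9.25), Toledo (10.4) and WSU-DLCL2 of GCB DLBCL, and HBL-1 (8.54) and MD903 (12.3) of ABC DLBCL. GRANTA519 and Mino had HOXA10 with neither HOXA5 nor HOXA7 active.

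HOXA7 was active in 8 lines, at 53.4 RPM in SU-DHL-10, 21.2 in SU-DHL-4, 11.4 in HBL-1, 11.1 in SU-DHL-6, 7.18 in Daudi, 6.59 in Karpas422, 2.75 in NU-DHL-1 and 2.68 in SU-DHL-8. Its highest inactive value was 0.616 RPM in SP-49, so none of the 11 MCL lines reached 1 RPM. HOXA7 and HOXA10 were active together in 3 lines (SU-DHL-10, NU-DHL-1 and HBL-1), HOXA7 alone in 5 and HOXA10 alone in 8.

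HOXA9 was active in NU-DHL-1 (8.64 RPM, 22 reads) and SU-DHL-10 (5.76 RPM, 566 reads), was next highest in Jeko-1 (1.63 RPM), and stood at 0 reads in 23 lines. HOXA11 was active in NU-DHL-1 alone (5.10 RPM from 13 reads). HOXA13, a gene of limb and genital patterning at the 5′ end, was active in DB (13.01 RPM), Jeko-1 (5.97), Toledo (4.48), WSU-DLCL2 (4.38) and SU-DHL-5 (2.16). In DB it was active with HOXA3 and HOXA5 but without any gene between HOXA5 and HOXA13.

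No HOXA gene was active in 4 MCL lines (JVM2, MAVER-1, REC-1 and UPN1) and in DOHH-2 of GCB DLBCL. No line had an unbroken run of more than 5 active measured neighbours, and SU-DHL-10 had a run of 5, HOXA5 to HOXA10. Runs of 4 were found in SP-53 and MD903 (HOXA3 to HOXA6) and in NU-DHL-1 (HOXA7 to HOXA11). In WSU-DLCL2, HOXA2 to HOXA5 were also active without a break, from 7 (HOXA4) to 19 reads (HOXA3) each.

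The measured HOXD genes were almost unread. HOXD8 had reads in 1 line only, HT, with 234 reads (2.79 RPM), and 0 reads in the other 33. HOXD13 had reads only in Pfeiffer (99 reads, 1.18 RPM), and HOXD11 in HBL-2 (18 reads) and OCI-Ly10 (1 read). HOXD12 had reads in 13 lines and reached 0.369 RPM at most (HBL-2). HT, the line with HOXD8, also had HOXB7 active, and HOXC4 was not active in it.

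**Figure D2:**
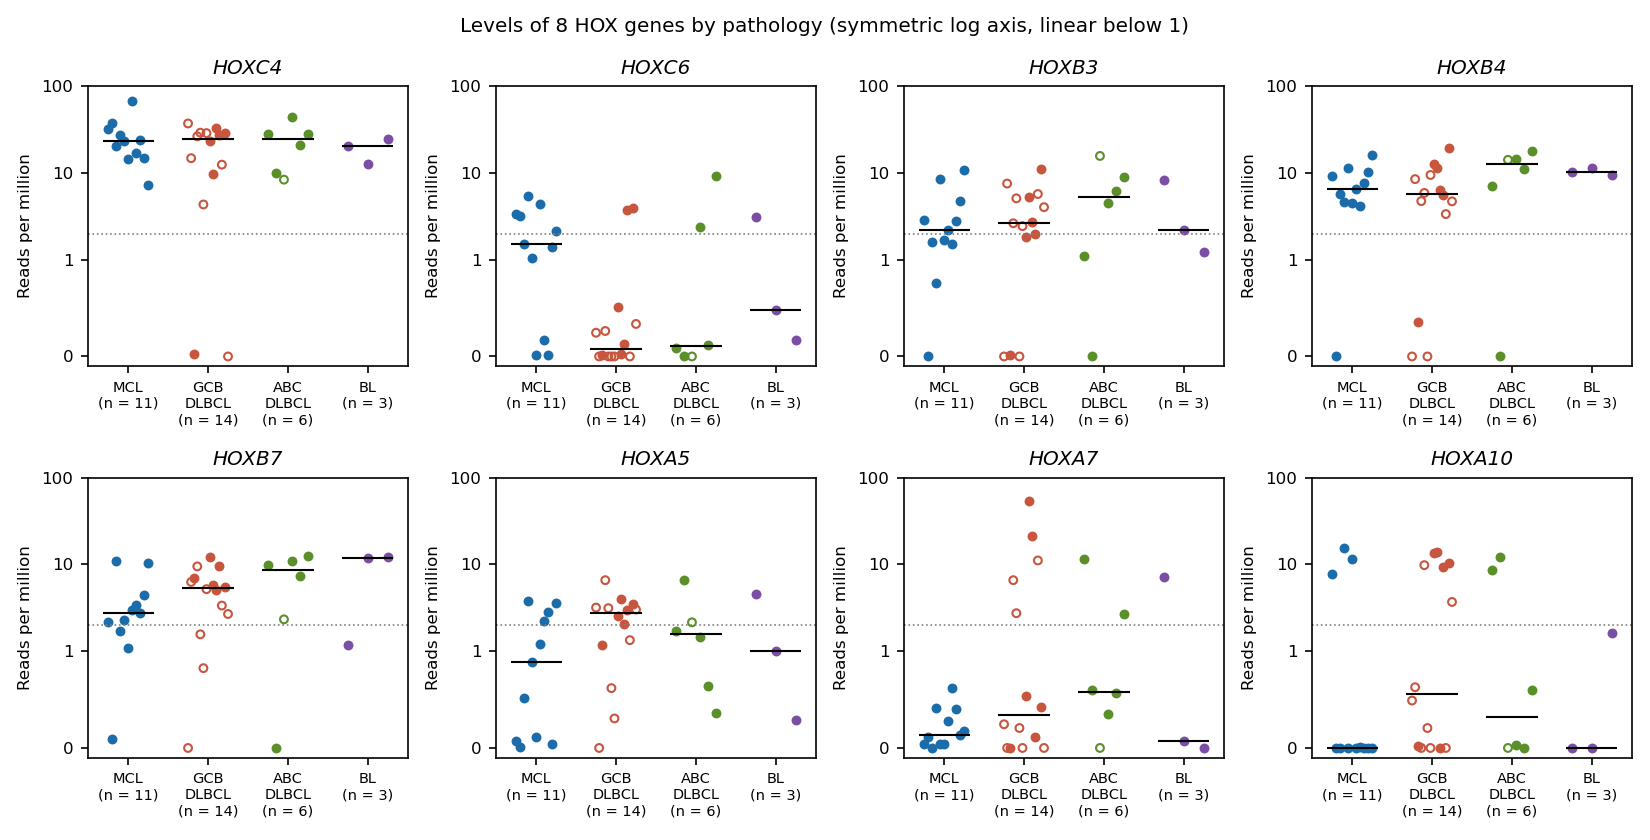
RPM (reads per 1000000 reads) of 8 HOX genes in every line by pathology, on a symmetric log axis that is linear below 1; filled points are first-class and open points second-class libraries, black bars are medians and the dotted line is the cut-off of 2. HOXC4 lies between 4.34 and 68.1 in 32 lines, while HOXA7 is above the cut-off in 8 lines, from 2.68 to 53.4, and HOXA10 in 11, from 3.70 to 15.4.

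Lines differed in how many HOX genes they used. NU-DHL-1, SU-DHL-10 and Toledo, all GCB DLBCL, had 11 active members each, and SU-DHL-5, WSU-DLCL2 and Jeko-1 had 10. OCI-Ly1 had 2, and HBL-2, JVM2 and HT had 3. The number per line was 3 to 10 with a median of 5 in MCL, 2 to 11 with a median of 9 in GCB DLBCL, 6 to 8 with a median of 7 in ABC DLBCL, and 9 (Daudi), 5 (Raji) and 4 (Ramos) in BL. Among the 6 first-class GCB DLBCL lines the range was 3 to 11 and the median 9.5. The share of all genes active per line is not given here, so these counts do not show a difference particular to HOX genes. The groups overlapped, and the medians depended on the cut-off. That of MCL was 8 at 1 RPM. At 5 RPM that of GCB DLBCL was 4 and that of ABC DLBCL 4.5. The values at 1 and at 5 RPM rest on unlike cut-offs and do not compare MCL with the other groups.

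Summed levels of each cluster were compared between lines and not between clusters. Summed HOXA reads ran from 1.83 to 36.7 RPM with a median of 10.3 in MCL, from 2.201 to 113.7 with a median of 28.97 in GCB DLBCL, and from 4.90 to 38.3 with a median of 12.6 in ABC DLBCL. Summed HOXB reads had medians of 13.4 RPM in MCL, 15.6 in GCB DLBCL and 32.9 in ABC DLBCL, and ranged from 0 to 39.9 over all lines. In BL the 3 lines had 5, 1 and 1 active HOXA genes (Daudi, Raji and Ramos) and 2, 3 and 2 active HOXB genes.

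**Figure D3:**
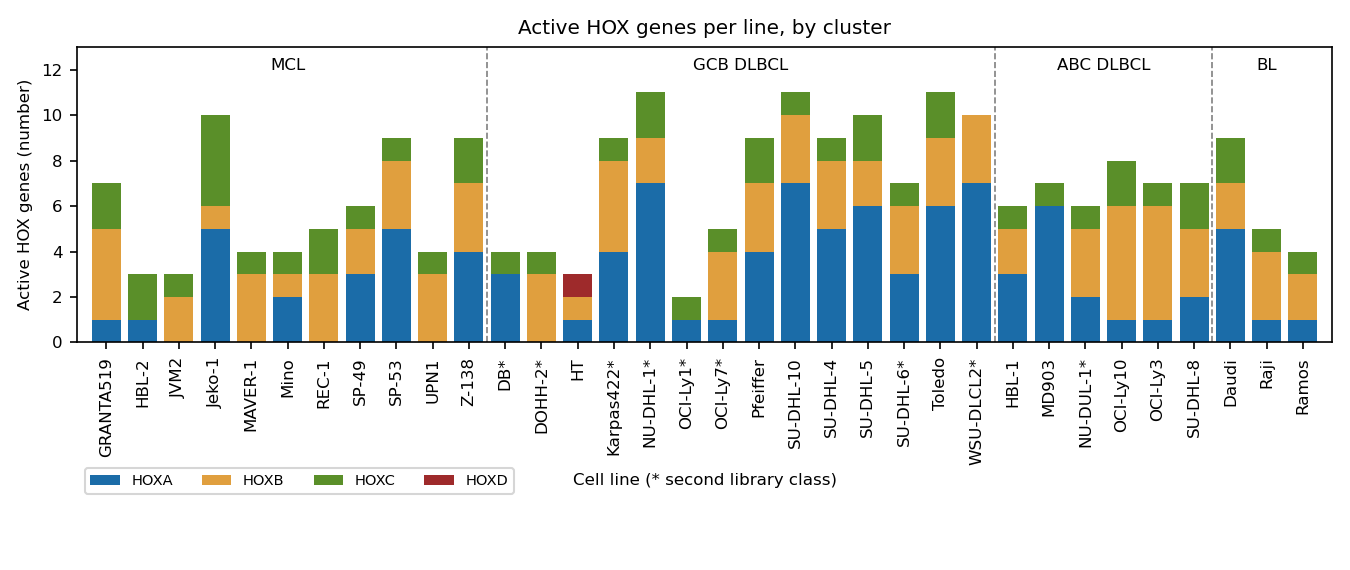
Number of active HOX genes in each of the 34 lines, stacked by cluster and ordered by pathology; asterisks mark the second library class. Counts run from 2 in OCI-Ly1 to 11 in NU-DHL-1, SU-DHL-10 and Toledo, and the HOXA share varies most, from 0 to 7 genes.

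Pathologies were compared with limma on the deposited log2 values of all 34 lines, over 22167 genes, of which 24 were HOX genes. Each tested gene stood more than 1 log2 unit above the lowest value in at least 3 lines. HOXB5, HOXB8, HOXC5 and the 4 HOXD genes did not meet this filter and were not tested. Between MCL and GCB DLBCL, 1 of the 24 tested HOX genes passed an adjusted p of 0.05, HOXA2, lower in MCL, whereas 23.7% of all genes passed. At an unadjusted p under 0.05 there were 4 of 24 HOX genes and 38.7% of all genes. The median difference of the 24 genes, MCL minus GCB DLBCL, was -0.10 on the log2 scale, against -0.02 for all genes tested. Some lineage markers moved in the same contrast: PDGFRB (1.80 ± 0.45) and ITGAM (1.68 ± 0.42) were higher in MCL, and DCN (-2.41 ± 0.83) and CD22 (-1.59 ± 0.53) lower (SE, limma adjusted p = 0.0067, 0.0065, 0.034 and 0.030). Their part in the HOX values was not tested.

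HOXA2, a gene of branchial arch patterning, was read weakly in every pathology. In MCL it held 0 reads in HBL-2, Mino and UPN1, a median of 0.0448 RPM, and 28 reads (0.258 RPM) in Z-138 at the highest. In GCB DLBCL it held 0 reads in OCI-Ly1 and OCI-Ly7, a median of 0.353 RPM, and 3.70 RPM in WSU-DLCL2 at the highest, from 11 reads. The groups overlapped. On the variance-stabilised scale HOXA2 averaged 4.90 ± 0.30 (SD, n = 11) in MCL and 5.68 ± 0.77 (SD, n = 14) in GCB DLBCL, where 4.55 is the value of 0 reads, and fell by 0.79 ± 0.23 (SE, limma adjusted p = 0.017).

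On this scale a single read is worth 5.43 in the DOHH-2 library and 5.63 in NU-DHL-1, while the highest MCL value, from 28 reads, was 5.49, so depth moves with the HOXA2 contrast. Among first-class libraries, where the 6 GCB DLBCL lines held 9 to 117 HOXA2 reads (0.107 to 1.19 RPM), the difference was -0.79 ± 0.21 (SE, limma adjusted p = 0.047). The call was lost with library class as a covariate (-0.80, limma adjusted p = 0.14) and in the 30 lines marked as re-analysed (-0.70, limma adjusted p = 0.059).

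**Figure D4:**
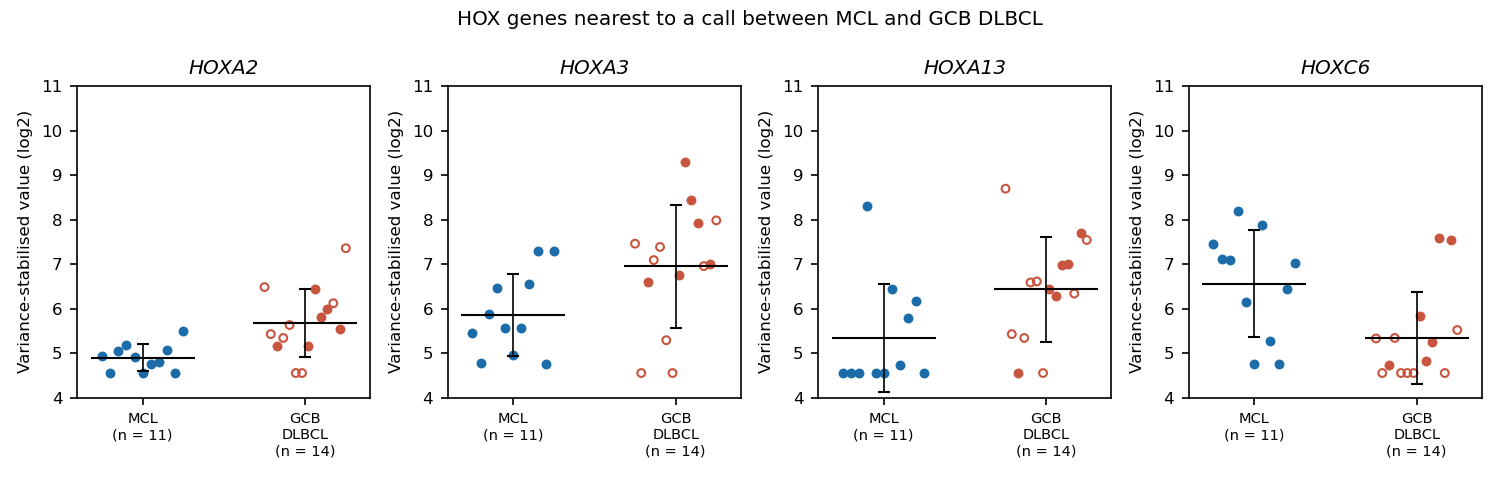
Variance-stabilised log2 values of HOXA2, HOXA3, HOXA13 and HOXC6 in the 11 MCL and 14 GCB DLBCL lines, with mean and SD; open points are second-class libraries and 4.55 is the value of 0 reads. HOXA2 averages 4.90 in MCL and 5.68 in GCB DLBCL, and the groups overlap in all 4 genes.

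The next 3 members by adjusted p did not pass. HOXA13 stood at 0 reads in 6 of the 11 MCL lines and in HT and OCI-Ly7 of GCB DLBCL, with a log2 difference of -1.09 ± 0.42 (SE, limma adjusted p = 0.053). HOXC6 differed by 1.22 ± 0.47 (SE, limma adjusted p = 0.054), and by 0.60 ± 0.65 (limma adjusted p = 0.71) among first-class libraries. HOXA3, a gene of thymus and throat development, ran from 0.0131 (UPN1) through 0.351 to 2.95 RPM (SP-53) in MCL and from 0 (DOHH-2 and OCI-Ly7) through 3.06 to 14.8 RPM (SU-DHL-10) in GCB DLBCL. Its log2 difference was -1.08 ± 0.44 (SE, limma adjusted p = 0.071). Among first-class libraries it was -1.80 ± 0.47 (SE, limma adjusted p = 0.040), and HOXA3 then passed beside HOXA2, 2 of 24 HOX genes against 2.83% of all genes. The 6 first-class GCB DLBCL lines stood at 1.60 (HT), 1.70 (Pfeiffer), 2.36 (Toledo), 4.99 (SU-DHL-5), 6.92 (SU-DHL-4) and 14.8 RPM (SU-DHL-10), and SP-53 (2.95) and Z-138 (2.83) were the MCL lines above the lowest 3 of them.

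In every other contrast no HOX gene passed with limma. The counts, with the share of all genes that passed, were 0 of 24 for MCL against the mean of the other 3 pathologies (4.46%), against ABC DLBCL (0.69%) and against BL (1.17%), with 0 at an unadjusted p under 0.05 in each, where 17.6%, 10.6% and 11.4% of all genes stood. For ABC DLBCL against GCB DLBCL the count was also 0 (0.726% of all genes), with HOXA2, HOXA13 and HOXC11 at an unadjusted p under 0.05 (17.3% of all genes) and a lowest adjusted p of 0.19, that of HOXA13 (-1.34 ± 0.50). BL against GCB DLBCL gave 0 (0.153%), with HOXA13 alone under 0.05 unadjusted (15.03% of all genes), and BL against ABC DLBCL gave 0 (0.117%) with none (8.61%). The moderated F test over the 4 pathologies gave 0 of 24 with 2 under 0.05 unadjusted (13.2% of all genes passed, and 31.9% were under 0.05 unadjusted), and its lowest adjusted p was 0.065. Among first-class libraries no HOX gene passed with limma in any contrast but MCL against GCB DLBCL. The share of all genes that passed there was 3.97% for MCL against the mean of the others, 0.735% against ABC DLBCL, 1.54% against BL, 0.226% for ABC DLBCL against GCB DLBCL, 0.171% for BL against GCB DLBCL, 0.537% for BL against ABC DLBCL and 3.55% for the F test, and the HOX genes at an unadjusted p under 0.05 numbered 3, 1, 1, 3, 3, 1 and 3 in the same order. Of all genes, 18.7%, 13.9%, 14.8%, 10.5%, 9.28%, 13.1% and 19.9% were under 0.05 unadjusted in that order. A p that misses the threshold does not show that HOX levels were alike.

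Of 9 TALE cofactors of HOX proteins, 8 were tested and 2 were lower in MCL than in GCB DLBCL, a share near the 23.7% of all genes that passed in this contrast. MEIS1, a partner of HOXA9 in leukaemia, stood at 0 to 2.96 RPM in MCL with a median of 0.0305, where Jeko-1 was the only active line. In GCB DLBCL it stood at 0 (DB, SU-DHL-6 and WSU-DLCL2) to 22.7 RPM (SU-DHL-5) with a median of 3.38, and 8 of 14 lines were active. In ABC DLBCL, MEIS1 was active in none of 6 lines, with 0 reads in 4, and in BL it stood at 1.11 RPM in Daudi, 0.552 in Raji and 0.610 in Ramos. MEIS1 fell by 1.75 ± 0.48 on the log2 scale in MCL against GCB DLBCL (SE, limma adjusted p = 0.011), and by 2.46 ± 0.51 (limma adjusted p = 0.011) among first-class libraries. ABC DLBCL against GCB DLBCL gave -2.10 ± 0.58 for MEIS1, which did not pass (limma adjusted p = 0.075). MEIS1 and HOXA9 were both active in NU-DHL-1 and SU-DHL-10.

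MEIS2 was active in 32 lines. In MCL it stood at 0.0218 (Mino), 4.52 and 13.9 RPM (Z-138), and in GCB DLBCL at 4.27 (HT), 31.3 and 67.8 RPM (Pfeiffer). MEIS2 fell by 2.27 ± 0.46 (SE, limma adjusted p = 0.0014) in MCL against GCB DLBCL and against the mean of the other pathologies the difference was -1.496 ± 0.45 (limma adjusted p = 0.048), while among first-class libraries the first difference was -1.86 ± 0.67 (limma adjusted p = 0.14). PBX2, PBX3 and PKNOX1, further TALE cofactors, were active in all 34 lines.

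Of 13 measured activators of the clusters, 3 were lower in MCL than in GCB DLBCL and none was higher, again near the 23.7% of all genes that passed. KMT2A, the methyltransferase that maintains HOX expression, fell by 1.65 ± 0.32 (SE, limma adjusted p = 0.00083). AFF4, a scaffold of the elongation complex that joins KMT2A fusions, fell by 1.30 ± 0.25 (SE, limma adjusted p = 0.00081). KDM6B, which removes the Polycomb mark, fell by 0.86 ± 0.30 (SE, limma adjusted p = 0.038). Among first-class libraries AFF4 passed (-1.16 ± 0.28, limma adjusted p = 0.027), KMT2A (-1.11 ± 0.40, limma adjusted p = 0.14) and KDM6B (-0.55 ± 0.41, limma adjusted p = 0.54) did not, and AFF1 was higher in MCL (2.49 ± 0.57, limma adjusted p = 0.019). The median difference of the 13 genes was -0.51, against -0.02 for all genes.

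Of 20 Polycomb genes, 3 were lower in MCL than in GCB DLBCL and 1 was higher, against 23.7% of all genes that passed in either direction. MTF2 fell by 1.005 ± 0.23, EZH1 by 1.04 ± 0.26 and ASXL1 by 0.67 ± 0.23 (SE, limma adjusted p = 0.0031, 0.0069 and 0.035). MTF2, a subunit of a Polycomb complex, was also lower in MCL than in the mean of the other pathologies (-0.84 ± 0.22, SE, limma adjusted p = 0.021), where 4.46% of all genes passed. None of these 4 passed among first-class libraries, where BMI1 was higher in MCL instead (1.40 ± 0.19, limma adjusted p = 0.00021). EZH2, EED and SUZ12 were active in all 34 lines and did not pass.

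Of 15 measured non-coding RNAs within the clusters, 10 were tested and none passed with limma between MCL and GCB DLBCL, with 2 at an unadjusted p under 0.05, against 23.7% and 38.7% of all genes. HOTAIRM1, which lies beside HOXA2, was active in 5 lines: WSU-DLCL2 (6.39 RPM), SU-DHL-6 (4.04), SU-DHL-10 (3.90), Karpas422 (2.11) and Daudi (2.04). HOXA-AS2 was active in SU-DHL-6 (5.05), NU-DHL-1 (4.71) and WSU-DLCL2 (3.37). HOTTIP, beside HOXA13, was active in NU-DHL-1 (8.24) and DB (2.21), and of these only DB had HOXA13 active. HAGLR, an RNA at the HOXD cluster, was active in GRANTA519 (6.80), Karpas422 (4.22) and DB (2.70), where no measured HOXD gene was active. HAGLROS, antisense to it, was active in GRANTA519 (5.71), HT (4.27) and Z-138 (2.06).

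Of 11 measured genes that flank the clusters, 9 were active in all 34 lines, among them SKAP2 and HIBADH beside HOXA, CALCOCO2 near HOXB, SMUG1 and CBX5 beside HOXC, and MTX2 beside HOXD. TTLL6 was active in no line and SKAP1 in 14. SKAP1, an adaptor of T-cell receptor signalling next to the 3′ end of HOXB, was the 1 of 10 tested that passed between MCL and GCB DLBCL, where 23.7% of all genes did. It stood at 0.0335 (REC-1), 44.3 and 143.5 RPM (JVM2) in MCL, at 0 (6 lines), 0.0272 and 38.3 (Toledo) in GCB DLBCL, and at 0.0123 (MD903), 3.71 and 43.2 (NU-DUL-1) in ABC DLBCL, and was not active in BL. SKAP1 was higher in MCL than in GCB DLBCL by 3.62 ± 0.83 (SE, limma adjusted p = 0.0036) and than in the mean of the others by 3.32 ± 0.81 (limma adjusted p = 0.012). Among first-class libraries the first difference was 2.61 ± 1.16 and did not pass (limma adjusted p = 0.24). SKAP1 and HOXB4 were active together in 13 lines, HOXB4 alone in 16 and SKAP1 alone in HBL-2, at 47.6 RPM with 0 HOXB4 reads.

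**Figure D5:**
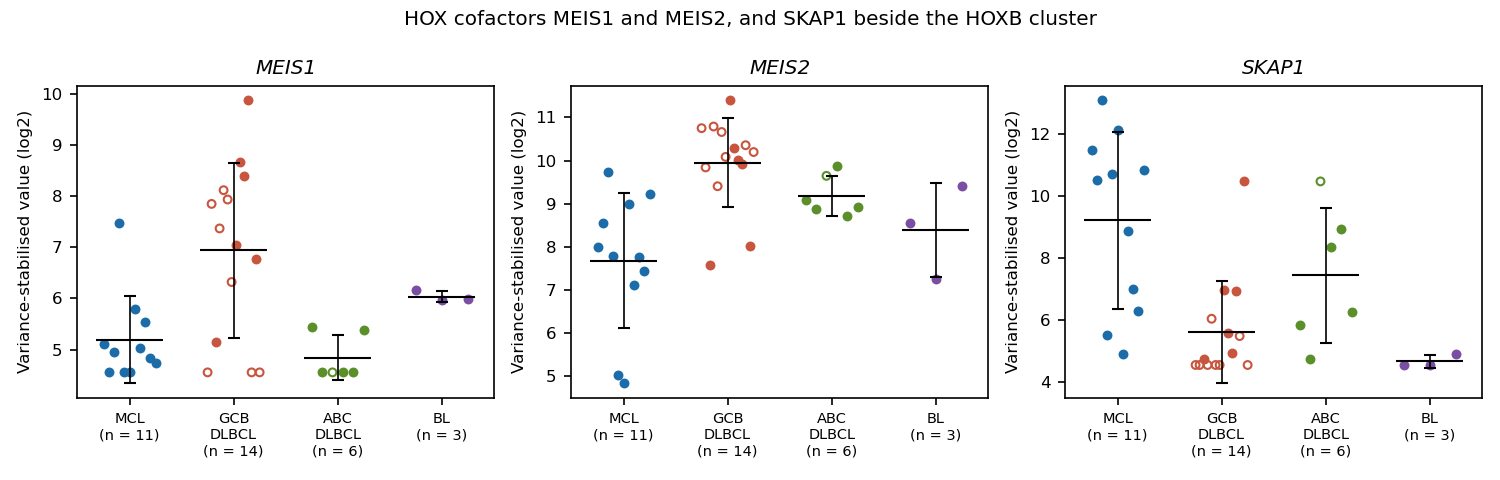
Variance-stabilised log2 values of MEIS1, MEIS2 and SKAP1 in all 34 lines by pathology, with mean and SD; open points are second-class libraries and 4.55 is the value of 0 reads. MEIS1 and MEIS2 lie lower and SKAP1 higher in MCL than in GCB DLBCL, with overlap in each.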

How the data were processed

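RNA of 34 lymphoma lines was sequenced, and the authors deposited 1 table of log2 variance-stabilised read counts. The submitters' processing notes name STAR 2.5.3a, R 3.6.1, DESeq2 1.26.0 and GRCh38, with no roles. The counter, annotation and use of strand are not given in the sources used here. Inverting the transform from its lowest value, 4.55, gave whole reads (tolerance 0.05) for every value of every library. Differences near 4.55 are compressed by the transform, and log2 differences of weakly read genes understate ratios of reads.

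Genes with at least 3 lines more than 1 log2 unit above the lowest value were tested (22167). limma 3.58.1 in R 4.3.3 fitted 1 mean per pathology, with an intensity-dependent prior, 7 contrasts and a moderated F test, and Benjamini-Hochberg adjustment over all genes tested, with a threshold of 0.05. The procedure was tested on simulated data. Lines are replicates, so p-values measure the spread between lines. Recovered depth ran from 2.55 to 165 M reads, and limits from 3 reads cover counting error only. Alternatives changed the filter, scale, scaling, libraries, covariate, cut-off and depth.

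Values by line are given for members past the threshold and for the 3 members of each cluster active in most lines, and other members were singled out after their values were seen. Listed genes are named where they passed in a contrast over all lines, except that some genes count in totals, sums and tests but are not reported here by name. The members and lists were chosen with earlier results of these data known. Positions and promoters are RefSeq's, on GRCh38.p14. Of 31 members, 15 had a promoter window, and the first window was kept where several were listed.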

Additional observations from a re-analysis of the deposited data

Results flagged for a closer look

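Within the 6 ABC DLBCL lines, 10 HOX genes were examined for a line whose gap to its nearest neighbour exceeded 0.625 of the group's range, a limit that chance passes in about 1 of 20 groups. MD903 stood apart in HOXB4, at a log2 value of 4.55 (0 reads), with a gap of 0.794 of the range. The other 5 lines held 321 or more HOXB4 reads. OCI-Ly10 stood apart in HOXC11, at a log2 value of 4.86 from 2 reads (0.0233 RPM), with a gap of 1 because the other 5 lines held 0 reads. At 2 reads that HOXC11 difference is within counting error.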

How the results depend on the processing

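The number of HOX genes that passed between MCL and GCB DLBCL was 1. It was 0 with the stricter filter (HOXA2 then not tested), with library class as a covariate and in the lines marked as re-analysed. It was 2 with log2(RPM + 1), upper-quartile scaling or the first library class only (HOXA2 and HOXA3), and 2 with log2(RPM + 0.1) or ranks of lines (HOXA2 and HOXA13). Leaving out 1 line at a time, an alternative chosen after seeing the data for all pathologies but BL, gave 1 to 3 genes, HOXA2 in each (limma adjusted p = 0.0091 to 0.030). HOXA13 joined it without DOHH-2, HT, Karpas422, OCI-Ly7, Jeko-1, REC-1 or UPN1, HOXA3 without DOHH-2, OCI-Ly1, OCI-Ly7 or Z-138, and HOXC6 without SU-DHL-8, Pfeiffer, SU-DHL-5, Toledo, Mino, SP-49 or SP-53. The F test passed 0 HOX genes, 2 with log2(RPM + 0.1) (HOXA2 and HOXA13), and 0 to 2 without 1 line: HOXA2 without MD903, OCI-Ly1, OCI-Ly7 or Pfeiffer, and HOXA13 without HT, OCI-Ly7 or Jeko-1. The other 6 contrasts gave 0 under each of their 43 alternatives. The cause of these changes was not tested.

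The number of members active in at least 1 line stayed within 1.5 times 22 under all 7 alternatives, a bound that 31 members cannot pass upwards. The set of members did change. At 5 RPM HOXA2, HOXA4, HOXA6, HOXC9, HOXC10 and HOXD8 were active in no line. At 1 RPM HOXB2, HOXC13 and HOXD13 became active. HOXA2, HOXA11 and HOXC9 were active in second-class libraries only. The median number active per line moved from 5 to 8 in MCL at 1 RPM, and from 9 to 4 in GCB DLBCL and from 7 to 4.5 in ABC DLBCL at 5 RPM. In BL it ran from 4.5 to 7 when 1 line was left out. For MCL against GCB DLBCL, no direction reversed for HOXA2, HOXA3, HOXA13 or HOXC6, the members followed through the alternatives. Some other members did reverse among first-class libraries. The log2 difference went from 0.53 to -0.19 for HOXB4, from 0.17 to -0.04 for HOXB3 and from 0.12 to -0.27 for HOXA4. Each of these differences was smaller than its SE. HOXB6 and HOXB9 reversed too, from 0.0055 and 0.036 over all lines. Among first-class libraries HOXB6 averaged 4.99 on the log2 scale in MCL and 5.35 in GCB DLBCL, and HOXB9 averaged 5.41 and 5.47. Depth limits the second-class GCB DLBCL libraries most, where 1 read is 0.207 RPM or more. No paired analysis was possible because each line is a separate sample and replicate numbers follow accession order.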
